A study of Mus musculus with 12 samples.

Results

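The steroidogenesis genes of Leydig cells were followed in bulk RNA-seq of mouse testis and sperm. The set held 10 genes, chosen by symbol from the 54660 gene names of both count tables: Lhcgr, Insl3, Star, Cyp11a1, Hsd3b1, Hsd3b6, Cyp17a1, Hsd17b3, Srd5a1 and Akr1c14. Each was listed once in the testis table, which had 23502 entries, and once in the sperm table, which had 51826. The study compared 4 groups of 3 libraries. It used C57BL/6J mice and made its floxed Xap5 and Xap5l knockout lines on that background. For the Stra8-GFPCre knock-in mice it states no background. Testes of postnatal day 16 (P16) mice came from WT and Xap5 cKO males, in which floxed Xap5 was deleted by a Stra8-GFPCre knock-in that is active in male germ cells. Leydig cells were therefore not the cells targeted. The study's text gives the cKO controls as Xap5 fl/Y, whereas the sample labels call these libraries WT. Sperm of P56 mice came from the cauda epididymis of WT males and of males with a global CRISPR/Cas9 knockout of Xap5l (Xap5l KO). The testes were the main readout, since sperm samples are not expected to hold Leydig cells.

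Leydig cells lie between the seminiferous tubules and make the androgens of the testis. Luteinizing hormone acts through the receptor Lhcgr, Star carries cholesterol into mitochondria, and Cyp11a1 cuts its side chain to give pregnenolone. Hsd3b enzymes and Cyp17a1 convert pregnenolone to androstenedione, and Hsd17b3 reduces that to testosterone. Srd5a1 and Akr1c14 convert androgens further and are known for high activity in Leydig cells before puberty. Insl3 is a peptide hormone of Leydig cells that guides descent of the testis. The Hsd3b6 enzyme is known as an isoform of adult-type Leydig cells, while Hsd3b1 is used by fetal and adult Leydig cells. In the fetal testis Hsd17b3 is known as a product of Sertoli cells, so not every member marks Leydig cells at all ages.

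Reads of the 2 main Hsd3b genes had to be told apart by sequence differences, so the start of their coding sequences is shown, from the GENCODE transcripts of GRCm38 with capitals at bases that differ between them. Hsd3b1 lies on the minus strand of chromosome 3 from 98852194 to 98859794, and Hsd3b6 on the same strand from 98805504 to 98814443. Both sequences run from base 1 to base 120 of the coding sequence.
Hsd3b1: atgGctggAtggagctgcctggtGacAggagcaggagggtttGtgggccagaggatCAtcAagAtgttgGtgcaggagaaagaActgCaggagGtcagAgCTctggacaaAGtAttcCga
Hsd3b6: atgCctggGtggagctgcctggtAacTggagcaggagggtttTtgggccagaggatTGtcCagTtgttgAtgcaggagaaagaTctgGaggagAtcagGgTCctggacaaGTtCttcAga
In this stretch 20 bases differed. Over the 1119 coding bases the 2 genes were 90% identical, and the longest identical run was 72 bases, shorter than a 150-base read. Of the words of 50 bases in the Hsd3b6 transcript, 16.1% were also found in another gene, most of them in Hsd3b2. Of the 50-base words in the Hsd3b1 transcript, 4.98% were also found in another gene. The Hsd3b1 and Hsd3b6 transcripts had 38 such words in common. Hsd3b2, Hsd3b3, Hsd3b4 and Hsd3b5 each had at most 4 counts in any testis library. How the authors' counting treated reads that match several genes is not given in the sources used here.

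Promoters are shown for the member with the largest rise and for the only one that fell in Xap5 cKO testes. They are the RefSeq windows on GRCm38.p6 from 250 bases before to 50 bases after the start, written 5′ to 3′ on the strand of the gene, with GC boxes (CCGCCC on either strand) in capitals.
Lhcgr (chr17:88791965-88792264, minus strand): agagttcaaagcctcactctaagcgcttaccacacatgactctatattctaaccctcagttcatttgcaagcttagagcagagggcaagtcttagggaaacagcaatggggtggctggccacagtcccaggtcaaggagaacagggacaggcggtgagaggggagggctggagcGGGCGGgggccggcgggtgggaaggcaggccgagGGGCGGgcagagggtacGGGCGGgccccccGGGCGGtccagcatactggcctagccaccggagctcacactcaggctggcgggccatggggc
Hsd17b3 (chr13:64089152-64089451, minus strand): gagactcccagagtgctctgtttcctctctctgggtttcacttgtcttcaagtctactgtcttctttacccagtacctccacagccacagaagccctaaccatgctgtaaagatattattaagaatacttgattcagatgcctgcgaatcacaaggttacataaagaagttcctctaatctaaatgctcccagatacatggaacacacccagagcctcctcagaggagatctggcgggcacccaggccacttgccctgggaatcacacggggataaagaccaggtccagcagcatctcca
The Lhcgr window held 4 GC boxes, starting 76, 42, 25 and 12 bases before the start, and the Hsd17b3 window held none. The Srd5a1 window also held 4, although Srd5a1 did not pass the test in testes. Insl3 and 1 Cyp11a1 window held 1 each. The windows of Hsd3b1 and Hsd3b6, which both rose, and of Akr1c14 held none. A match is a description of letters only. Of the 10 members, 8 had 9 windows in the table, Cyp11a1 having 2, and 4 of the 9 (1 each of Cyp11a1, Insl3, Lhcgr and Srd5a1) held a GC box, against 35.6% of 32817 mouse promoter windows of the same length. The letters AAGGTCA, a half-site of the kind bound by Nr5a1, were in none of the 9 and in 4.72% of all windows. TGACG, a cAMP response half-site, was in 1 Cyp11a1 window and in 20.8% of all windows, and TATAAA was in none of the 9 and in 13.6% of all windows. Both Cyp11a1 matches lay in the window upstream of the gene span given here, and the window inside that span held none of these letters. These 4 motifs were searched on both strands.

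Library totals were between 32251198 and 36759054 counts in testis and between 38881197 and 52308452 in sperm. Xap5, listed as Fam50a, had 819, 811 and 988 counts in WT testes against 673, 616 and 651 in Xap5 cKO testes, which is -0.33 as a log2 fold change (SE 0.126, adjusted p = 0.0495 with edgeR). Whole testis includes cells in which Cre is not active. Xap5l, listed as Fam50b, had 574, 440 and 419 counts in WT sperm against 18, 23 and 8 in Xap5l KO sperm. One WT testis library, replicate 3, lay nearer to the cKO libraries than the others did. Its correlation of log2 CPM with them across genes was 0.928 to 0.933, against 0.897 to 0.903 for WT replicates 1 and 2, and its Fam50b count was 197 against 532 and 539. Xap5 cKO replicate 3 stood apart among the members, as given below. Both are kept in all values unless stated.

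All 10 members were measured in WT testes, and their levels per kilobase of exon spanned a wide range. Insl3 was highest at 112 ± 50.4 CPM per kb (mean ± SD, n = 3; CPM are counts scaled to library size with TMM factors). Hsd3b6 followed at 45.4 ± 19.7 and Hsd3b1 at 33.9 ± 9.99, and the libraries of these 2 overlapped. Srd5a1 (13.5 ± 1.3), Star (11.7 ± 7.43), Cyp17a1 (10.3 ± 3.95) and Cyp11a1 (9.46 ± 2.36) formed a middle group in which each neighbour overlapped the next. Hsd17b3 had 5.75 ± 1.07 CPM per kb, with its highest library at 6.82 and the lowest Cyp11a1 library at 6.83. Lhcgr (3.34 ± 1.18) and Akr1c14 (2.42 ± 0.273) were lowest and overlapped each other. These levels use all annotated exons of a gene as its length. Summed over members, WT testes had between 318 and 516 CPM and Xap5 cKO testes between 520 and 1010, so the lowest cKO library stood just above the highest WT library.

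Members that rose in Xap5 cKO testes were the hormone receptor Lhcgr, the peptide hormone Insl3 and both Hsd3b genes, each by more than 2-fold. Hsd17b3, the enzyme of the last step to testosterone, fell by more than 2-fold. Star, Cyp11a1, Cyp17a1, Srd5a1 and Akr1c14 did not pass the test. Thus 4 of 10 members were higher and 1 was lower at an adjusted p under 0.05, where 25% of the 16821 genes tested were higher and 28.1% lower (53.1% in either direction). At a fold change above 2 the same 4 and 1 members were called, against 4.15% higher and 10.9% lower of all genes. The median log2 fold change of the members was 0.95, beside -0.00825 over all genes. The libraries of the 2 genotypes did not overlap for 4 members, where 62.3% of all genes did not overlap. In bulk tissue, fewer cells of a type and less RNA per cell cannot be told apart, nor can more of either. Germ cell transcripts fell in the same libraries: 6 of 6 pachytene spermatocyte markers were lower, with a median log2 fold change of -4.14 (Piwil1 -6.29 and Hspa2, the most abundant, -2.07).

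**Figure D1:**
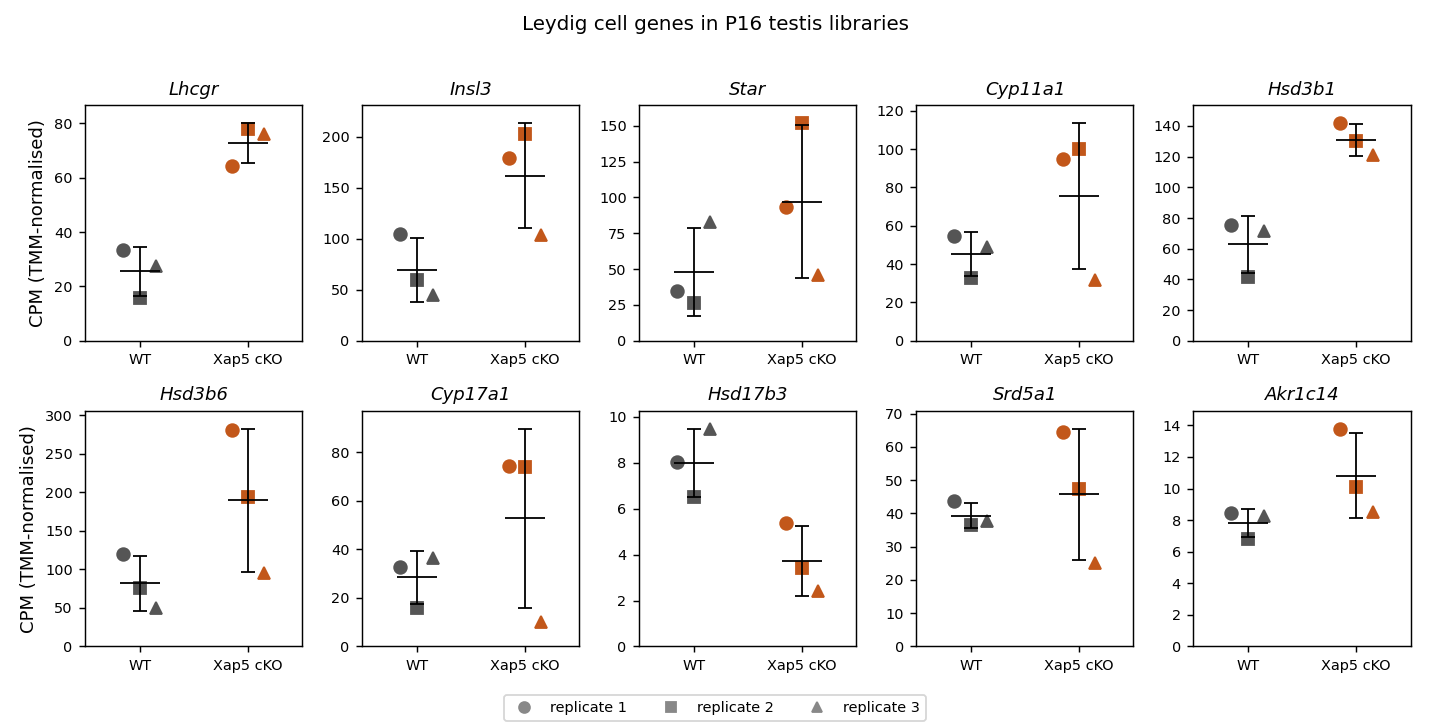
CPM of each member in the 6 testis libraries, on linear axes that start at 0 and differ between panels. Points are libraries, with the replicate number as the symbol, and bars are mean ± SD of 3 libraries. The 3 Xap5 cKO points lie above all WT points for Lhcgr and Hsd3b1 and below them for Hsd17b3, and cKO replicate 3 lies far below the other cKO libraries for Cyp11a1, Cyp17a1 and Srd5a1.

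Lhcgr (chromosome 17, 88716481 to 88791990, minus strand) had 33.3, 15.6 and 27.7 CPM in WT testes against 64.4, 77.9 and 76.2 in Xap5 cKO testes. Every cKO library was above every WT library. The log2 fold change was 1.51 (SE 0.233, adjusted p = 0.000595 with edgeR), and it passed the test in all 15 alternative settings. Insl3 (chromosome 8, 71689214 to 71690575, plus strand) had 105, 59.9 and 44.6 CPM in WT testes against 179, 203 and 104 in cKO testes. The lowest cKO library lay just under the highest WT library. Its log2 fold change was 1.22 (SE 0.318, adjusted p = 0.0104 with edgeR). Insl3 shares 404 exonic bases, 64.8% of its exons, with Jak3 on the same strand, a kinase gene that had 229 to 302 counts in WT and 328 to 469 in cKO testes, against 1604 to 6908 for Insl3. How reads in the shared bases were assigned is not given in the sources used here.

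Star (chromosome 8, 25806555 to 25815982, plus strand) had 34.5, 26.7 and 83.1 CPM in WT testes against 93.3, 152 and 46 in Xap5 cKO testes. WT replicate 3 was high and cKO replicate 3 low, so the groups overlapped. The log2 fold change was 1.01 (SE 0.477, adjusted p = 0.104 with edgeR), and without WT replicate 3 it was 1.66 (adjusted p = 0.00767). Cyp11a1 (chromosome 9, 58006411 to 58027023, plus strand) had 54.8, 32.8 and 48.7 CPM in WT testes against 95, 100 and 31.5 in cKO testes. The first 2 cKO libraries were above all WT libraries and the third below them. The difference did not pass the test (log2 fold change 0.74, SE 0.374, adjusted p = 0.128 with edgeR). Cyp17a1 (chromosome 19, 46667165 to 46673172, minus strand) was split in the same way, with 32.8, 16 and 36.5 CPM in WT testes against 74.3, 73.8 and 9.93 in cKO testes. Its log2 fold change was 0.89 (SE 0.604, adjusted p = 0.244 with edgeR).

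The 2 Hsd3b genes, which act between Cyp11a1 and Cyp17a1, both rose. Hsd3b1 had 75.4, 41.6 and 71.7 CPM in WT testes against 142, 130 and 121 in Xap5 cKO testes. The cKO libraries were close to each other and all above WT. Its log2 fold change was 1.06 (SE 0.192, adjusted p = 0.00145 with edgeR). Hsd3b6 had 120, 75.6 and 49.9 CPM in WT testes against 281, 194 and 95.1 in cKO testes. The groups overlapped at cKO replicate 3 and WT replicate 1. The log2 fold change of 1.21 (SE 0.391, adjusted p = 0.0264 with edgeR) lost its call when WT replicate 2 or 3 or cKO replicate 1 or 2 was left out, with adjusted p between 0.0601 and 0.107.

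Hsd17b3 (chromosome 13, 64058266 to 64089230, minus strand) had 8.01, 6.5 and 9.48 CPM in WT testes against 5.38, 3.4 and 2.4 in Xap5 cKO testes. Every cKO library was below every WT library. The log2 fold change was -1.10 (SE 0.308, adjusted p = 0.0144 with edgeR), and it lost its call only without cKO replicate 2 (adjusted p = 0.0527). Srd5a1 (chromosome 13, 69573449 to 69611442, minus strand) had 43.6, 36.5 and 37.8 CPM in WT testes against 64.6, 47.5 and 25.1 in cKO testes. The WT libraries lay close together and the cKO libraries on both sides of them. Srd5a1 shares 16.4% of its exonic bases with the transcript Gm17108 on the same strand, Akr1c14 shares 7.22% with the pseudogene Gm18857, and Cyp11a1 shares 3.02% with Gm17322. The log2 fold change of 0.22 (SE 0.275, adjusted p = 0.532 with edgeR) had a 95% interval from -0.41 to 0.84. Akr1c14 (chromosome 13, 4049011 to 4090688, plus strand) had 8.43, 6.83 and 8.28 CPM in WT testes against 13.8, 10.1 and 8.53 in cKO testes. Its libraries did not overlap, but the difference did not pass the test (log2 fold change 0.46, SE 0.216, adjusted p = 0.102 with edgeR).

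Spread between libraries was wide for these genes in both genotypes. Among the 10465 genes in the members' CPM range, the median coefficient of variation was 9.19% in WT and 8.22% in Xap5 cKO testes, while the median over the members was 32.4% and 42%. Of the 10 members, 7 in WT and 8 in cKO testes were above the 90th percentile of those genes. Hsd3b1 and Lhcgr were even in cKO testes, at 8.01% and 10%, and Cyp17a1 varied most, at 70.3%. In cKO replicate 3 Cyp17a1 was at 34.9% of the WT mean, while it was at 261% and 260% in the other cKO libraries. Without cKO replicate 3, 8 members were higher and 1 lower. Star (log2 fold change 1.34, adjusted p = 0.0367 with edgeR), Cyp11a1 (1.10, 0.00216), Cyp17a1 (1.38, 0.00572) and Srd5a1 (0.51, 0.0231) were then also called. In that fit 7 of 8 Sertoli cell markers were higher too. Without WT replicate 3, 4 members were higher and 1 lower, with Star in and Hsd3b6 out. The shares of all genes called in these 2 fits are not given here.

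The same Xap5 cKO library was low for genes outside the set. Rhox5, an androgen-responsive homeobox gene of Sertoli cells singled out after its values were seen, had 46 counts there against 273 to 377 in the other 5 testis libraries. The cholesterol synthesis gene Mvd had 325 counts in it, 608 and 483 in the other cKO libraries and 727 to 784 in WT. Hbb-bs, a globin of red blood cells, had 415 counts in it against 642 to 1296 elsewhere. The 7 other Sertoli markers were not low in this library, and Nr5a1 had 8217 counts there, beside 7948 and 8398. The part of these differences in the members' values was not tested.

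Ratios of members within a library do not depend on library scaling. Hsd17b3 per Cyp11a1 was 0.146, 0.198 and 0.195 in WT testes against 0.0566, 0.034 and 0.0762 in Xap5 cKO testes, so the geometric mean in cKO testes was 0.296 times that in WT, and the libraries did not overlap. Lhcgr per Cyp11a1 was 0.609, 0.477 and 0.569 in WT against 0.678, 0.777 and 2.42 in cKO testes, again without overlap. This log2 difference of 0.98 was 0.40 without cKO replicate 3. Srd5a1 per Hsd17b3 was 5.44, 5.61 and 3.99 in WT against 12, 13.9 and 10.4 in cKO testes, a 2.43-fold higher ratio that was seen in all 3 cKO libraries. For each of these 3 ratios the two-sided exact permutation test gave p = 0.1, the smallest that 3 against 3 libraries allow, and p = 0.367 after adjustment over the 11 ratios compared. The other 8 ratios overlapped between genotypes. Hsd3b6 per Hsd3b1 was 1.6, 1.82 and 0.697 in WT against 1.98, 1.49 and 0.784 in cKO testes, where replicate 3 of each genotype held the lowest value.

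**Figure D2:**
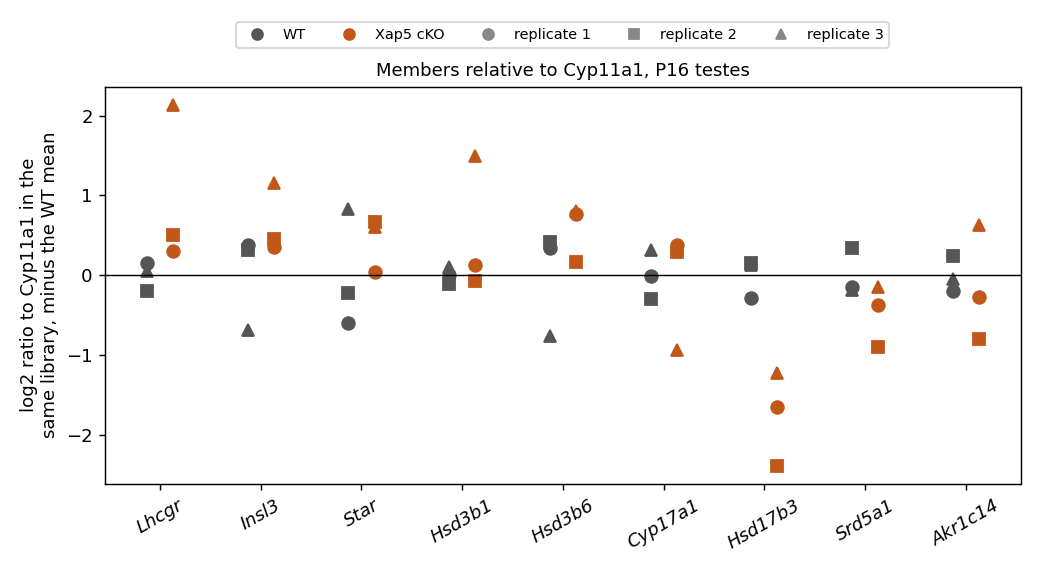
Ratio of each member to Cyp11a1 in the same testis library, as log2 ratio minus the WT mean, with 1 point per library. Hsd17b3 is lower in all 3 Xap5 cKO libraries, while the cKO replicate 3 points of Lhcgr and Hsd3b1 lie far above the others.

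Regulators and suppliers of steroidogenesis mostly rose on this scale. Of 11 transcription factors of steroidogenic genes, 9 were higher and none lower, with a median log2 fold change of 0.62. Of all genes tested, 25% were higher and 28.1% lower. With scaling to Sertoli markers, 2 of these 11 were higher and 1 lower, with a median of 0.059. Which cells held these transcripts was not tested. Gata4 rose by 0.96 (SE 0.0592, adjusted p = 1.09e-05 with edgeR), Mef2c by 0.95, Cebpb by 0.88 and Nr5a1, the nuclear receptor that switches on steroidogenic enzymes, by 0.84 (SE 0.0617, adjusted p = 1.83e-05). The most abundant of them was Mef2a, which rose by 0.37. Nr4a1, an early response gene, had 994, 884 and 3583 counts in WT against 2558, 2329 and 1792 in Xap5 cKO testes and did not pass, and WT replicate 3 was high for it as for Star. Of 12 genes of cholesterol supply and electron transfer, 8 were higher and none lower, with a median of 0.62. They included the mitochondrial cholesterol-binding protein Tspo (0.98), the lipoprotein receptor Scarb1 (0.79), the ferredoxin reductase Fdxr that feeds electrons to Cyp11a1 (0.91), H6pd (0.85), Cyb5a, which aids Cyp17a1 (0.71), and its reductase Por (0.22, adjusted p = 0.0283). Fdx1, the electron carrier of Cyp11a1, stood at a log2 fold change of 0.58 (adjusted p = 0.0671). The cholesterol ester enzyme Soat1 (0.66) and the lipid transfer gene Stard3 (0.51) were also higher, whereas the lipase gene Lipe (0.01, adjusted p = 0.98) did not pass.

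The 21 cholesterol synthesis genes were divided, with 4 higher, 6 lower and a median of -0.14. Idi1 fell by 0.79, Sqle by 0.63 and Mvd by 0.58, Ebp rose by 0.81 and Hmgcs1, the most abundant, by 0.41, all on the log2 scale. Among 29 paralogs of the members 15 were tested, of which 9 were higher and 4 lower. Hsd17b1 had 71, 61 and 93 counts in WT against 264, 234 and 310 in Xap5 cKO testes, a rise of 1.94 on the log2 scale (SE 0.25, adjusted p = 0.000215 with edgeR). Cyp19a1, the aromatase, had 91, 96 and 45 counts in WT testes and 0 in every cKO testis, at least 24.2-fold lower when 3 counts per library are taken as the limit. Stard6 and Insl6 fell by 2.93 and 2.13, and WT replicate 3 was the lowest WT library for both and for Cyp19a1. Hsd17b4, the most abundant paralog, stood at a log2 fold change of 0.12 (adjusted p = 0.121).

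Other genes of the Leydig lineage and of hormone action moved as follows. Of 8 tested genes of Leydig cell maturation, 6 were higher and 1 lower, with a median log2 fold change of 0.97. Vcam1 rose by 1.32, Pdgfra, a receptor of Leydig progenitors and the most abundant, by 1.05, and Cyp7b1 by 0.97, while Ptgds, a prostaglandin synthase known from adult Leydig cells, fell by 1.77 from 83 to 101 counts in WT to 21 to 32 in Xap5 cKO testes. Hsd11b1, a marker of mature Leydig cells that was singled out after its values were seen, had 12, 4 and 13 counts in WT against 53, 29 and 12 in cKO testes and did not pass (adjusted p = 0.0645 with edgeR). Of the fetal Leydig and adrenal genes only 3 of 7 were tested, and Ren1 passed narrowly (log2 fold change 1.03, adjusted p = 0.047 with edgeR). No gene of this list was higher when WT replicate 2 or 3 or any 1 cKO replicate was left out, or with either marker scaling. Of 15 genes of hormone signalling, 12 were higher and 1 lower. Esr1 and Prlr are in both this list and the maturation list, and Fshr is in both the paralog and Sertoli lists. Inhba rose by 1.09, Esr1 by 0.96, Prlr by 0.90 and the abundant inhibin subunit Inha by 0.87. Rxfp2, the receptor of Insl3, fell from 62, 42 and 41 counts in WT to 6, 5 and 5 in cKO testes (log2 fold change -3.06, SE 0.521, adjusted p = 0.00103 with edgeR). Germ cell transcripts fell in the same libraries. Their part in the falls of Rxfp2, Cyp19a1, Stard6 and Insl6 was not tested.

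Markers of other somatic cells were higher in the same Xap5 cKO libraries. All 7 macrophage markers rose, with a median of 1.09 (Csf1r by 1.25, and Mrc1, the most abundant, by 0.66), and their summed level was 125 to 171 CPM in WT and 230 to 309 in cKO testes. Of 8 Sertoli markers 7 rose, with a median of 0.70 (Amh by 1.14, Aard, the most abundant, by 0.72), and their sum was 1770 to 2020 CPM in WT and 3010 to 3150 in cKO testes. Of 6 peritubular myoid markers 3 rose, with a median of 0.27 (Des by 0.93, Acta2, the most abundant, by 0.33), summed at 516 to 674 and 743 to 809 CPM. Of 5 endothelial markers 2 rose, with a median of 0.66 (Cdh5 by 0.79, Tek by 0.66), summed at 70.4 to 83.1 and 110 to 117 CPM. None of these somatic markers was at 0 and none was lower. All 6 early spermatocyte markers fell, with a median of -1.27 (Spo11 by 2.74, Sycp1, the most abundant, by 1.23), as did 5 of 7 spermatogonial markers, Id4 by 1.54 and Uchl1, the most abundant, by 0.40 among them. Gfra1, of undifferentiated spermatogonia, was the only one of the 7 that rose, by 0.56. The part of these lists in the members' values was not tested.

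**Figure D3:**
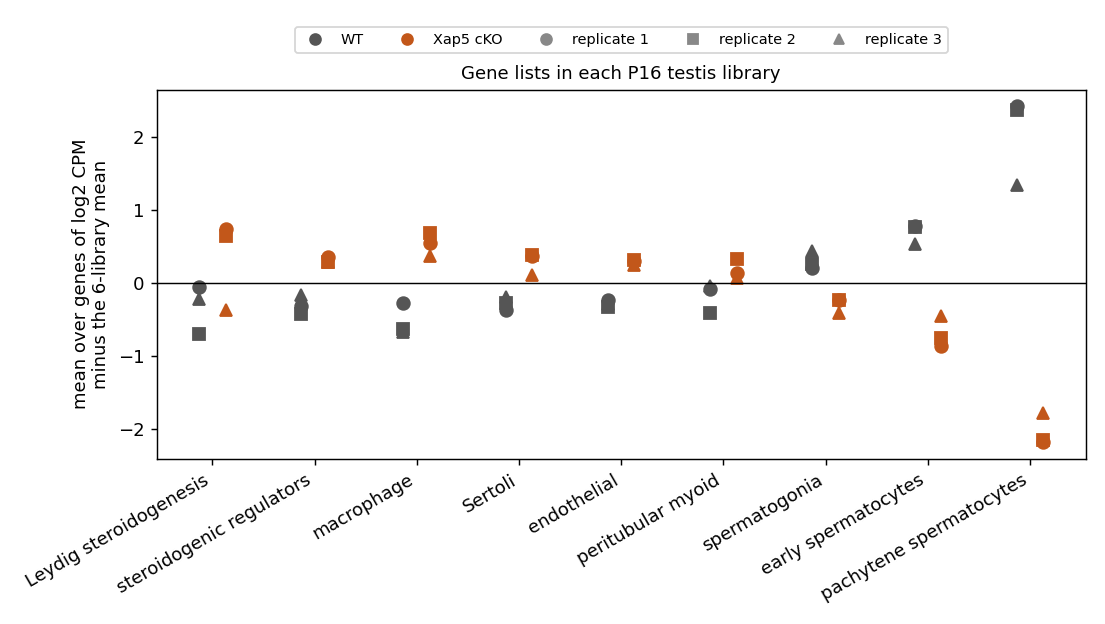
Log2 CPM minus the 6-library mean of the gene, averaged over the genes of each list, with 1 point per testis library. Only genes with at least 10 counts in every testis library enter, which are 5 of the 6 pachytene spermatocyte markers. The somatic lists are higher in all 3 Xap5 cKO libraries, the germ cell lists are lower, and cKO replicate 3 is below all but 1 WT library for the Leydig steroidogenesis genes.

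When libraries were scaled to the 8 Sertoli markers instead of to all genes, the median log2 fold change of all genes became -0.58, and 440 genes were higher and 8947 lower instead of 4202 and 4734. On this scale Lhcgr was still higher (log2 fold change 0.94, SE 0.242, adjusted p = 0.00475 with edgeR) and Hsd17b3 lower (-1.69, SE 0.287, adjusted p = 0.000239). The scaling moved the value of every member down, so it was not a separate test of the fall of Hsd17b3. Hsd3b1 (0.48, adjusted p = 0.0501), Insl3 (0.59, adjusted p = 0.0945) and Hsd3b6 (0.58, adjusted p = 0.159) no longer passed, and the members' median was 0.34. The values of Srd5a1 and Akr1c14 changed sign, to -0.39 and -0.13, and neither passed. Scaling to 19 Sertoli, myoid and endothelial markers left Lhcgr (1.02) and Hsd3b1 (0.57, adjusted p = 0.0154) higher and Hsd17b3 lower (-1.61). Rhox5, which was low in cKO replicate 3, was among the markers of both scalings. The mean log2 CPM of the 8 Sertoli markers, relative to each gene's 6-library mean, was 0.111 in that library. It was 0.367 and 0.379 in the other cKO libraries. The effect of Rhox5 on the scaled values was not tested. Of the other lists, the regulators had 2 higher and 1 lower and the supply genes 2 higher and 3 lower when scaled to Sertoli markers, cholesterol synthesis had 0 higher and 17 lower, the paralogs had 1 higher and 6 lower, and the maturation genes 2 higher and 1 lower. The hormone signalling list then had 0 higher and 2 lower, and the macrophage list 1 higher.

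**Figure D4:**
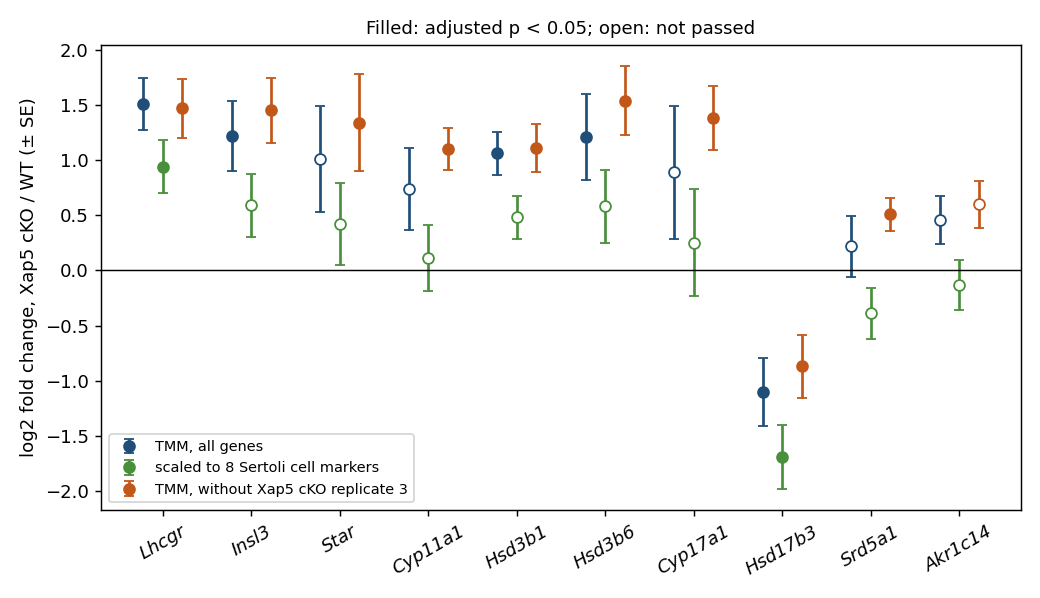
Log2 fold change (Xap5 cKO over WT, ± SE) of each member with TMM scaling, with scaling to 8 Sertoli cell markers, and with TMM but without cKO replicate 3. Filled points passed an adjusted p of 0.05. Lhcgr is above 0 and Hsd17b3 below 0 with filled points in all 3 settings, and the Sertoli-scaled value is the lowest of the 3 for every member.

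In P56 sperm the members were scarce. They summed to 20.1 to 40 CPM in WT and 10.1 to 18.7 in Xap5l KO libraries. Only 6 of 10 passed the filter on low counts, and none of these was called with edgeR and TMM, where 9.02% of the 20945 genes tested were higher and 3.07% lower (12.1% in either direction). At an unadjusted p under 0.05, 3 were lower, beside 33.5% of all genes in either direction, and DESeq2 called 1, Cyp11a1. The CPM of the genotypes did not overlap for 2 of the 6, Cyp11a1 and Srd5a1, where 38.3% of all genes did not overlap. All 6 had negative log2 fold changes, with a median of -1.17 beside -0.0833 over all genes. Insl3 had 604, 334 and 305 counts in WT sperm against 264, 203 and 6 in KO sperm, and the groups did not overlap in counts but did in CPM. Its log2 fold change was -1.55 (SE 0.911, adjusted p = 0.251 with edgeR). Cyp11a1 had 171, 98 and 92 counts in WT against 43, 79 and 68 in KO sperm, all KO libraries being lower (-1.30, SE 0.391, adjusted p = 0.0563 with edgeR; DESeq2 adjusted p = 0.02).

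Cyp17a1 (100 to 218 counts in WT, 71 to 109 in Xap5l KO), Hsd3b6 (27 to 76 and 0 to 21), Star (98 to 204 and 102 to 239) and Srd5a1 (121 to 194 and 116 to 163) did not pass either. The 95% interval of the log2 fold change was wide even for the abundant members, from -0.97 to 0.31 for Star and from -0.88 to 0.17 for Srd5a1. Hsd3b6 was at 0 in Xap5l KO replicate 3, the library with 6 counts of Insl3. Hsd3b1 had at most 33 counts, Hsd17b3 at most 14, Akr1c14 at most 6 and Lhcgr at most 4 in any sperm library, and none of the 4 was tested. Lhcgr had 0 counts in 5 of 6 libraries, which allows up to 3 counts, or 0.0514 to 0.0909 CPM. Transcripts known from other cells were counted too: the epididymal gene Crisp1 had 162972 to 303515 counts, Hbb-bs 31682 to 231032 and the macrophage gene Csf1r 376 to 2129. How they came to be in these samples was not tested. Of 7 macrophage markers 3 were lower in KO sperm and none higher, with a median of -0.97, and the 4 erythroid markers had a median of -1.69 with none called. Their part in the members' values was not tested.

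**Figure D5:**
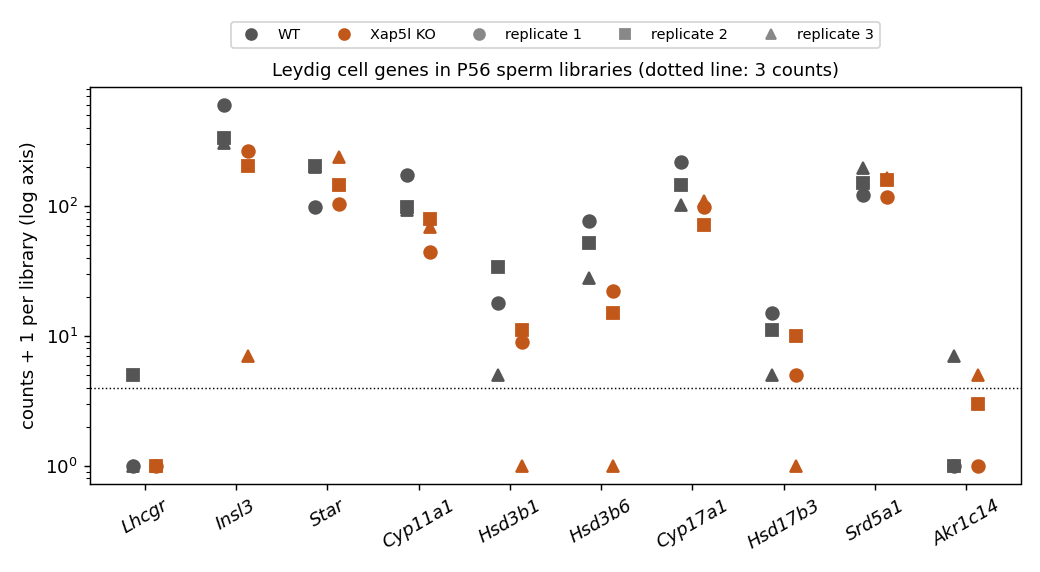
Counts + 1 of each member in the 6 sperm libraries on a log axis, with 1 point per library and a dotted line at 3 counts. Insl3, Star, Cyp11a1, Cyp17a1 and Srd5a1 lie above the line in every library, while Lhcgr and Akr1c14 have at most 6 counts.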

How the data were processed

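RNA-seq of 12 libraries was analysed, 3 each of WT and Xap5 cKO testis (P16) and of WT and Xap5l KO sperm (P56), grouped by the sample labels. After poly(A) selection and paired-end sequencing, the authors trimmed reads with Trimmomatic 0.36, mapped these to GRCm38 with HISAT2 2.1.0 and deposited whole-number counts per gene, not normalised. The counting tool and the use of strand are not given in the sources used here. The members and gene lists were chosen with earlier results of these data known.

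Each tissue was fitted on its own with edgeR 4.0.16 in R 4.3.3: filterByExpr, TMM, the quasi-likelihood test and Benjamini-Hochberg adjustment over all genes tested, with a call at an adjusted p under 0.05. CPM are counts scaled to library size with TMM factors. In the sperm table repeated gene names were kept as separate entries. The fits were tested on simulated data, where most 2-fold changes were called in testis but most were missed in sperm. A member that was not called in sperm may therefore still differ. Alternatives were other filters, RLE size factors, library size alone, DESeq2 1.42.0, a replicate block, scaling to marker genes and leaving out each library. Ratios used the two-sided exact permutation test (scipy 1.17.1). Exon positions are those of GENCODE on GRCm38, and promoter windows those of RefSeq.

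All members were named, with their values in each library. From each other list the text names up to 4 called genes with the largest fold changes, the most abundant gene, and genes that hand substrate or electrons to a member. Nr4a1, Rhox5, Hsd11b1, Gfra1 and Hbb-bs were named after their values were seen. The values of 1 gene of the supply list are not reported here. The sources call the 3 libraries of a group biological replicates. Depth of 32251198 to 52308452 counts per library limits the precision of low counts, and limits taken from counts of 0 cover counting error only.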

Additional observations from a re-analysis of the deposited data

How the results depend on the processing

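In testes, 4 members were higher in all settings of filter, size factors and DESeq2, with 1 lower. Leaving out 1 library gave 3 to 8 higher and 0 to 1 lower members. The shares of all genes called in those testis fits are not given here. The count of higher members was 1 with Sertoli scaling and 2 with scaling to Sertoli, myoid and endothelial markers. For all genes in testes, Sertoli scaling gave 440 higher and 8947 lower, the wider marker scaling 763 and 8700, and a fold change above 2 gave 698 and 1837. Without 1 library Srd5a1 ranged from -0.11 (without cKO replicate 1, a change of sign) to 0.51, and it also changed sign with Sertoli scaling (-0.39) and with the wider scaling (-0.31), and Akr1c14 with the same scalings (-0.13 and -0.05). The value of 0.51, without cKO replicate 3, passed (adjusted p = 0.0231 with edgeR). The values that changed sign did not pass, and the cause was not tested.

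In sperm, 1 member was lower with library size alone (Hsd3b6) and 1 with DESeq2 (Cyp11a1). For all genes in sperm, 392 were lower without a filter, 149 with library size alone and 267 at a fold change above 2, and DESeq2 gave 2921 higher and 1163 lower. Leaving out 1 sperm library gave 1 to 3006 higher and 1 to 1197 lower genes, and no member was called in any of these 6 fits.

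Among the ratios in testes, leaving out 1 library changed the sign for Cyp17a1 to Cyp11a1 (range -0.32 to 0.33), Akr1c14 to Cyp11a1 (-0.54 to 0.17) and Hsd3b6 to Hsd3b1 (-0.36 to 0.44). The other 8 ratios kept their direction.

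Replicate numbers were shared by the groups, but deviations of same-numbered libraries correlated at only -0.0141 to 0.0125 in testes and -0.0809 to 0.149 in sperm, so the numbers were not taken to pair them. Both replicate 1 sperm libraries had low TMM factors, 0.8206 in WT and 0.8082 in Xap5l KO, against 1.083 to 1.123 in the other sperm libraries. Whether they shared a batch was not tested. With the replicate block, testes had 4 higher and 1 lower member, and sperm had 1215 higher and 192 lower genes with no member called.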
